A study of Homo sapiens with 18 samples.

Results

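Described here are 9 genes of transforming growth factor beta (TGF-beta) signalling, extracellular matrix and mesenchymal state: TGFB1, TGFB2, TGFBI, CCN1, CCN2, THBS1, FN1, VIM and COL1A1. They are a list of names set with earlier results of these data known, with no threshold on a measured value, out of 61487 counted genes, and all 9 were present in all 18 libraries of the study. The cells were NCI-H1975, an established human lung adenocarcinoma line, in 3 conditions. The sgDAMP cells carried a CRISPR knockout aimed at DAMP, a peptide that the series title places in the long non-coding RNA DSP-AS1, the sgControl cells carried the CRISPR control, and the Scramble cells bear that label alone, with no agent or guide named. Each condition was sequenced 3 times as poly(A)-enriched mRNA and 3 times as ribosome footprints, the RNA fragments that ribosomes shield from nuclease, and cells for footprints were harvested in 100 µg/ml cycloheximide. Whether the knockout line was a single clone or a pool, and whether the numbered replicates were separate cultures, is not given in the sources used here, so p-values measure only the spread between these libraries.

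TGF-beta ligands are secreted in a latent form, are released in the matrix, and signal through paired serine/threonine kinase receptors to SMAD transcription factors. Matrix proteins are among the best known genes that this pathway raises, and several of them, such as CCN1 and CCN2, are also raised by the mechanosensitive co-activator YAP bound to TEAD factors. In carcinoma cells the pathway is known for the epithelial-to-mesenchymal transition, in which epithelial keratins and cadherins give way to vimentin, fibronectin and fibrillar collagen. The design asked whether loss of the peptide changes the translation of mRNAs, and the mRNA libraries stand beside the footprints to separate the one from the other.

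The mRNA libraries held 17171514 to 17455799 gene counts in sgDAMP cells, 17098397 to 17464782 in sgControl cells and 10859527 to 12424884 in Scramble cells. The footprint libraries were shallower, with 6207783 to 6864945 gene counts in sgDAMP cells, 6845899 to 7840852 in sgControl cells and 1035159 to 1302852 in Scramble cells. Of the Scramble footprint counts 6.37% to 20.16% lay in protein-coding genes, against 76.31% to 76.59% in sgDAMP and 78.89% to 79.31% in sgControl footprints. DSP-AS1 had 0, 1 and 1 footprint counts in the sgDAMP libraries and 175, 176 and 216 in the sgControl libraries, while its mRNA counts were 319, 324 and 336 in sgDAMP and 299, 328 and 309 in sgControl cells. The epithelial keratin KRT7 was high in mRNA, given in CPM (a gene's count relative to the total gene counts of its library). It stood at 3371 CPM in sgDAMP, 5548 in sgControl and 1887 CPM in Scramble cells. In the same order the keratins KRT8 stood at 10311, 12564 and 3775 CPM and KRT18 at 3683, 4361 and 2157 CPM. CDH1, an epithelial cadherin, stood at 43.4, 27.2 and 116.1 CPM. The lung lineage factor NKX2-1 was near 0 in every mRNA group (0.0582, 0.0777 and 0.0268 CPM in the same order), and EPCAM, an epithelial surface protein, stood at 0.519, 0.249 and 0.814 CPM, and KRT19, a keratin, at 0.772, 0.637 and 0.172 CPM, so of the epithelial markers these 3 were nearly absent. The summed level of 6 fibroblast markers was 0.757 to 1.32 CPM in sgDAMP mRNA, 0.576 to 1.99 CPM in sgControl mRNA and 0.644 to 1.29 CPM in Scramble mRNA, and COL1A2, which fibroblasts express together with COL1A1, had 0 counts in the sgDAMP mRNA libraries and 14 in the sgControl ones.

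The libraries of a group did not vary alike. Counts of the 3 sgDAMP footprint libraries, and of the 3 sgControl ones, agreed within sampling noise by the chi-square statistic per degree of freedom. For pure counting noise it averages 1 over all genes, and slightly less once the highest values are left out. Over the lowest 99% of genes it averaged 0.91 in sgDAMP and 0.909 in sgControl footprints. Outside that agreement stood 21 genes in sgDAMP and 57 in sgControl footprints, whose counts varied beyond sampling noise (adjusted p under 0.05). It ran from 0.253 to 1.68 for the 9 genes in sgDAMP and from 0.101 to 2.5 in sgControl footprints. The same statistic was 64.7 in sgDAMP mRNA, 38.4 in sgControl mRNA, 4.11 in Scramble mRNA and 16 in Scramble footprints. The footprint libraries of sgDAMP and of sgControl were therefore summed and counted as 1 sample each, their comparison carries no p-value, and its intervals cover counting error only.

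The start-site-proximal sequence of 2 of the genes is shown because TEAD factors, which YAP binds, recognise the letters GGAATG, given here in capitals. The lines hold the 250 bases before the start of each gene in RefSeq, build GRCh38.p14, read 5′ to 3′ along the gene's own strand.
CCN2 (chr6:131951373-131951622, minus strand): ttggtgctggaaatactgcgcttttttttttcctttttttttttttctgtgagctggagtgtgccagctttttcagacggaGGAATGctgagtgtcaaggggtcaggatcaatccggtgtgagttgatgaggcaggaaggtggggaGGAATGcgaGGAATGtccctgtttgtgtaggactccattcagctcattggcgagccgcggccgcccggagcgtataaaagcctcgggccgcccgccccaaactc
THBS1 (chr15:39580829-39581078, plus strand): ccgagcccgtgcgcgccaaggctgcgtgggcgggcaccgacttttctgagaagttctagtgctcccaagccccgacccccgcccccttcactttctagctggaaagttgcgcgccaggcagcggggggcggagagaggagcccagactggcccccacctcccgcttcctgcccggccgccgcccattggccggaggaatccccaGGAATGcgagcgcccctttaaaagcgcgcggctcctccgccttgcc
The CCN2 window held GGAATG 3 times, starting 169, 104 and 95 bases before the start of the gene, and the THBS1 window held it once, 46 bases before. RefSeq windows of 250 bases before to 50 after the start were at hand for 7 of the 9 genes, and on both strands the letters were also present once in TGFB2 and in none of TGFB1, TGFBI, FN1 and VIM. Of 35116 such human windows 14% held GGAATG at least once and 0.128% at least 3 times. The SMAD core letters CAGAC, searched on both strands and present in 45.3% of windows, were found in the windows of CCN2 once, THBS1 once and TGFB2 at 2 places. The palindrome GTCTAGAC, also bound by SMADs, present in 0.202% of windows, was found in none of the 7. No motif contains the letters of another, and a match describes letters, not binding.

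TGFB1 and TGFB2 encode ligands of the pathway. TGFB1 (ENSG00000105329, chr19:41330323-41353922 in GRCh38) had mRNA levels of 457, 242 and 426.5 CPM in sgDAMP, 446, 487.5 and 300.1 CPM in sgControl, and 195.5, 180.3 and 212 CPM in Scramble cells. The sgDAMP and sgControl libraries overlapped, and all 6 lay above the Scramble libraries. Its footprints stood at 22.4, 19.5 and 22.3 CPM in sgDAMP, 14, 16.1 and 15.3 CPM in sgControl, and 66.7, 58.9 and 14.6 CPM in Scramble libraries. In CPM every sgDAMP footprint library lay above every sgControl one, and Scramble libraries spanned both. Scaling by total counts, as CPM does, moved the median of all genes by 0.219 on the log2 scale, towards sgDAMP. For TGFB1 and the genes below, the share of all genes set apart so in footprints is not given here. TGFB2 (ENSG00000092969, chr1:218345336-218444619) showed the reverse order of conditions: its mRNA stood at 15.8, 7.68 and 6.83 CPM in sgDAMP, 4.67, 9.24 and 7.67 CPM in sgControl, and 32.6, 37.2 and 29.7 CPM in Scramble cells. Scramble was highest without overlap, and the spread of the other 2 conditions overlapped. In footprints TGFB2 had 166, 158 and 165 CPM in sgDAMP and 122, 129 and 128 CPM in sgControl libraries, against 16, 8.69 and 4.61 CPM in Scramble libraries.

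TGFBI, CCN1, CCN2 and THBS1 encode secreted proteins that TGF-beta is known to raise. TGFBI (ENSG00000120708, chr5:136028988-136063818), an adhesion protein that binds collagens and integrins, had 1071, 566 and 675.5 CPM of mRNA in sgDAMP, 1340.4, 991 and 990.3 CPM in sgControl, and 910.3, 814 and 935 CPM in Scramble cells. Of the sgDAMP libraries, 2 lay below all others, and the third lay among the sgControl values. Its footprints stood at 3038, 3037 and 3058 CPM in sgDAMP, 2672, 2688 and 2730.5 CPM in sgControl, and 401, 446 and 115 CPM in Scramble libraries. These groups did not overlap in CPM. Scaled so that most genes show no change, the TGFBI footprint ratio of sgDAMP over sgControl was 0.97, on the lower side. CCN1 (ENSG00000142871, chr1:85580761-85583950), a matricellular protein that binds integrins, had mRNA levels of 58.9, 44.7 and 29.9 CPM in sgDAMP, 50, 38.9 and 56.3 CPM in sgControl and 32.3, 28 and 32.8 CPM in Scramble cells. These levels overlapped between sgDAMP and each of the others, while sgControl lay above Scramble. CCN1 footprints were set apart more widely, at 223, 219 and 225 CPM in sgDAMP, 115.5, 122 and 123 CPM in sgControl, and 6.76, 12.6 and 3.07 CPM in Scramble libraries.

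CCN2 (ENSG00000118523, chr6:131948176-131951372), also called connective tissue growth factor, was low throughout, with 5.94, 1.95 and 2.14 CPM of mRNA in sgDAMP, 4.61, 2.11 and 5.61 CPM in sgControl and 5.75, 6.2 and 6.72 CPM in Scramble cells. Its footprint counts were 41, 42 and 55 in sgDAMP, 26, 26 and 20 in sgControl and 5, 3 and 6 in Scramble libraries, which is 6.6, 6.12 and 8.05 CPM, 3.8, 3.32 and 2.57 CPM, and 4.22, 2.9 and 4.61 CPM. All sgDAMP footprint libraries lay above the other 6, and sgControl and Scramble libraries overlapped. THBS1 (ENSG00000137801, chr15:39581079-39599466) encodes thrombospondin-1, which can release TGF-beta from its latent complex. THBS1 mRNA stood at 11.1, 5.96 and 6.54 CPM in sgDAMP, 8.29, 8.36 and 7.96 CPM in sgControl and 11.8, 15.9 and 12 CPM in Scramble cells, with sgDAMP values on both sides of sgControl and Scramble above all. THBS1 footprints stood at 119.4, 119.4 and 128 CPM in sgDAMP, 96.6, 101 and 100.2 CPM in sgControl, and 11.8, 18.4 and 3.84 CPM in Scramble libraries.

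FN1, COL1A1 and VIM are the matrix and cytoskeletal genes of the group. FN1 (ENSG00000115414, chr2:215360865-215436068), which encodes fibronectin, had 663, 264.5 and 371 CPM of mRNA in sgDAMP, 509, 552 and 333 CPM in sgControl, and 779.8, 738 and 659.5 CPM in Scramble cells, where only sgDAMP replicate 1 reached the Scramble range. Its footprints stood at 36.1, 37 and 34.6 CPM in sgDAMP, 23.4, 24.4 and 24.4 CPM in sgControl, and 204, 146 and 64.5 CPM in Scramble libraries, so that Scramble was highest and sgControl lowest without overlap. COL1A1 (ENSG00000108821, chr17:50184101-50201631), the main chain of fibrillar type I collagen, was low throughout, with 10.8, 4.24 and 6.13 CPM of mRNA in sgDAMP, 8.35, 7.72 and 4.7 CPM in sgControl and 4.47, 4.99 and 5.06 CPM in Scramble cells. The mRNA levels of the 3 conditions overlapped. COL1A1 footprint counts were 35, 45 and 40 in sgDAMP libraries, against 11, 8 and 11 in sgControl libraries and 1 in each Scramble library.

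VIM (ENSG00000026025, chr10:17228241-17237593) encodes vimentin, the intermediate filament of mesenchymal cells. VIM mRNA stood at 214, 124 and 150.4 CPM in sgDAMP, 154, 198 and 217 CPM in sgControl, and 952, 901 and 1022 CPM in Scramble cells, where it was highest without overlap. VIM footprints had the opposite order, with 1308, 1322 and 1344.5 CPM in sgDAMP, 1213, 1227.5 and 1227 CPM in sgControl, and 29.6, 36.7 and 15.4 CPM in Scramble libraries. The span of VIM overlaps that of the antisense gene VIM-AS1, which had 21 mRNA counts in sgDAMP, 11 in sgControl and 12800 in Scramble cells, and 0 footprint counts in all 3 conditions. Whether counting used strand is not given in the sources used here, so reads of VIM and VIM-AS1 cannot be told apart with certainty. FN1 overlaps the coding gene ATIC, with 7591, 7753 and 3489 mRNA counts in sgDAMP, sgControl and Scramble cells, and 5 of the 9 genes overlap some other annotated gene. Levels across the Scramble libraries and the rest are set side by side without a test, because whether all were counted with the same settings is not given either.

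**Figure D1:**
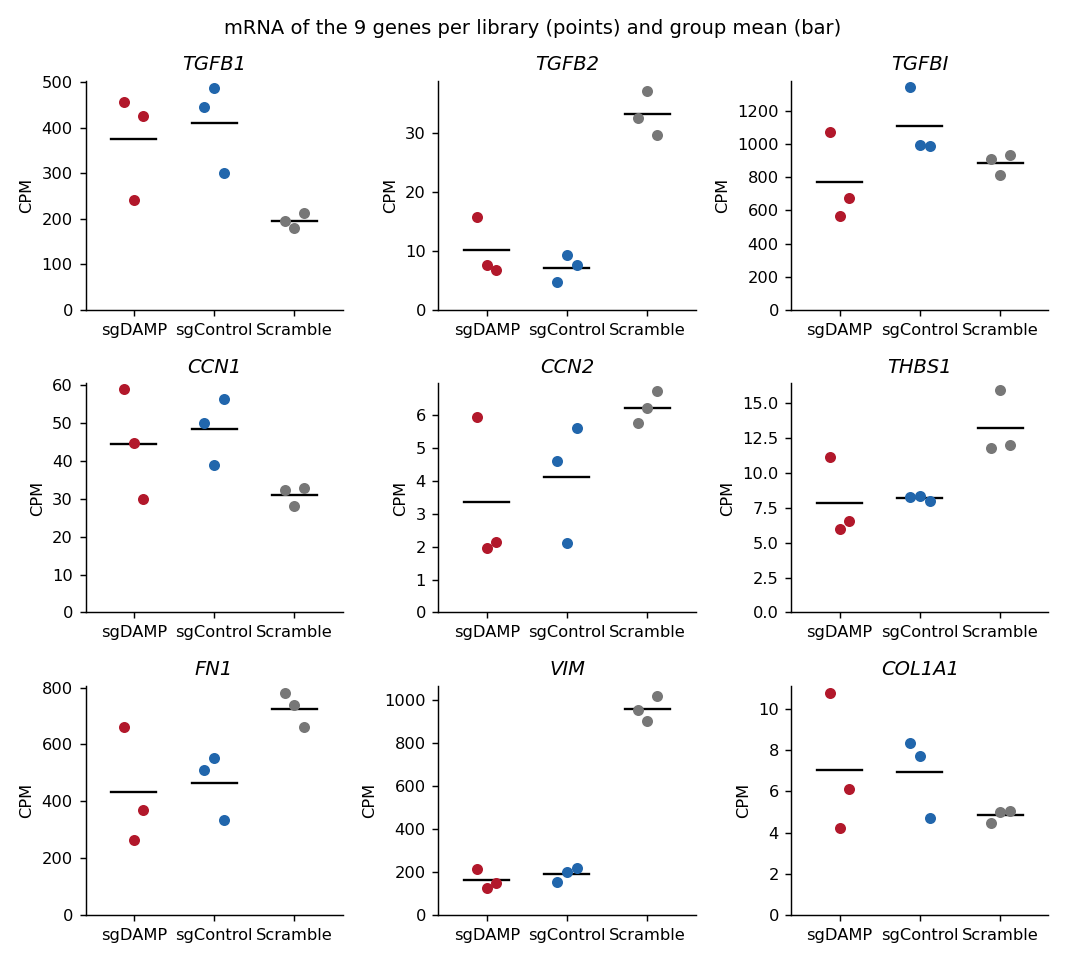
mRNA level of each gene (CPM, linear axis from 0) in the 3 libraries of sgDAMP, sgControl and Scramble cells, with points for libraries and a bar for the group mean. VIM, TGFB2 and THBS1 were highest in Scramble cells without overlap, while the sgDAMP and sgControl libraries overlapped in all 9 panels.

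**Figure D2:**
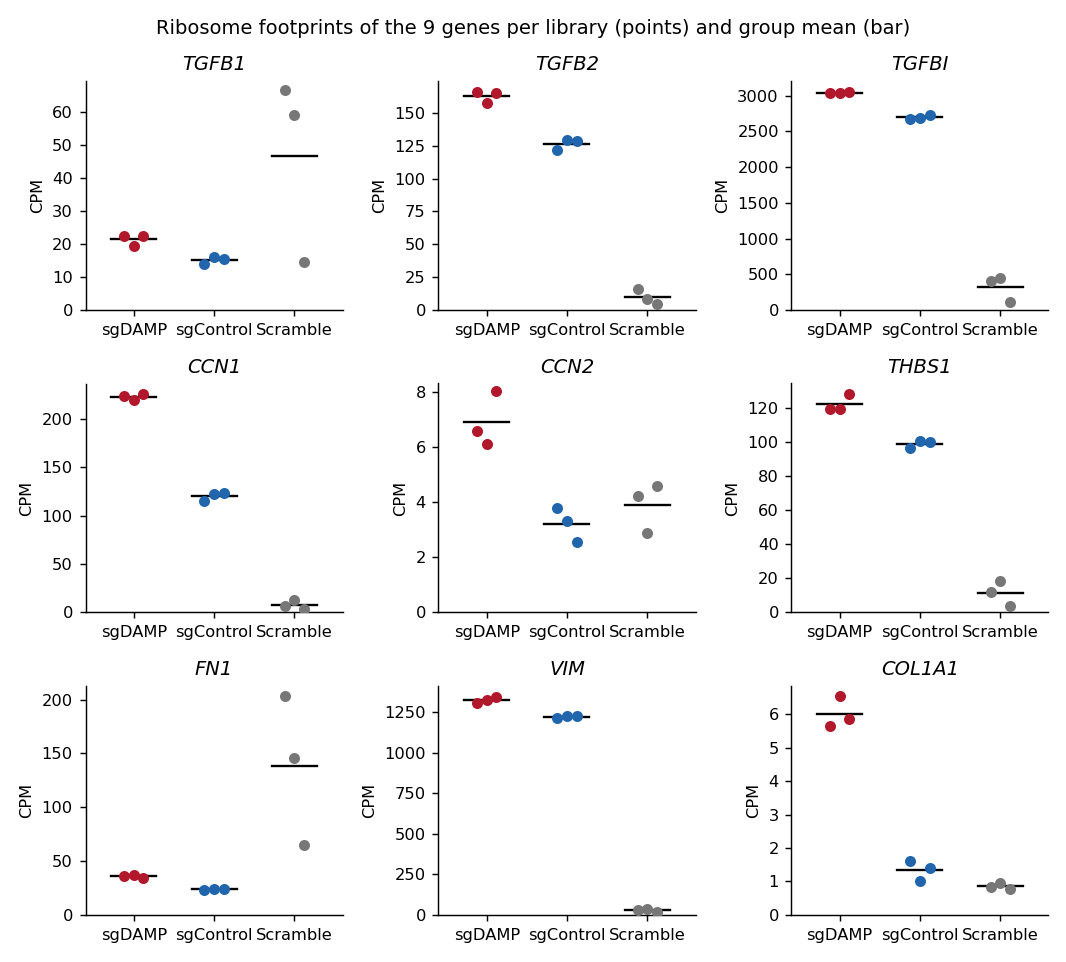
Footprint level of each gene (CPM, linear axis from 0) in the same layout. In CPM, which is relative to total counts, the sgDAMP libraries lay above the sgControl libraries in all 9 panels. The share of all genes that did so is not given here. Scaled so that most genes show no change (TMM), TGFBI and VIM were lower in sgDAMP footprints, with ratios of 0.97 and 0.931. Libraries of the same CRISPR condition lay close together, as in TGFBI at 3037 to 3058 and 2672 to 2730.5 CPM.

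In mRNA none of the 9 genes differed between sgDAMP and sgControl cells by edgeR's quasi-likelihood test, with Benjamini-Hochberg adjusted p from 0.862 to 0.939 over 14032 tested genes. The fitted log2 change was below 0 for 8 of the 9, with a median of -0.28 beside 0.03 over all tested genes. TGFBI was lowest, at -0.69 (SE 0.30, unadjusted p 0.0408), and was the single gene of the group whose libraries did not overlap once scaled by TMM, a scaling that sets most genes to no change. Of all genes tested, 11.5% did not overlap in this way, 5.91% higher and 5.54% lower in sgDAMP cells. In bulk libraries fewer cells with an mRNA and less of it per cell cannot be told apart. CCN2 stood at -0.46 (SE 0.47), VIM at -0.37 (SE 0.27), TGFB1 at -0.29 (SE 0.32), CCN1 at -0.28 (SE 0.28), FN1 at -0.28 (SE 0.34) and THBS1 at -0.22 (SE 0.32). TGFB2 was at 0.33 (SE 0.37) and became -0.07 without sgDAMP replicate 1, and COL1A1 was at -0.15 (SE 0.39) and became 0.03 under total-count scaling. Of all 14032 genes, 0 (0%) passed edgeR's test at an adjusted p of 0.05, 741 had an unadjusted p under 0.05, and DESeq2 called 21 and limma-voom 0.

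The spread of the mRNA libraries was shared by these genes. Among the 6 libraries of both conditions, sgDAMP replicate 1 was the highest for 6 of the 9 genes and sgDAMP replicate 2 the lowest for 7. Over 12741 genes, 32.3% were highest in sgDAMP replicate 1, 31.7% were highest in sgDAMP replicate 2 and 28% were lowest in it. FN1, for instance, stood at 663 CPM in sgDAMP replicate 1 and 264.5 CPM in replicate 2, with all 3 sgControl libraries between them.

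Genes whose mRNA followed the same course over the 6 libraries were found by the root-mean-square difference of log2 CPM, centred per gene, among 7278 coding genes. CCN1 was closest to DOCK5 (0.068), TTF2 (0.092) and SLC30A1 (0.099), beside a variation of its own of 0.33. TGFBI was closest to CLTCL1 (0.066), TMCO4 (0.076) and TNFAIP8L1 (0.08), with 0.418 of its own. CCN2 was closest to BCOR (0.241), NOCT (0.252) and KLF4 (0.253), with 0.606 of its own. These likenesses describe 6 libraries, 3 of each condition, and nothing else.

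In footprints 3 of the 9 genes were at least 1.5-fold higher in sgDAMP than in sgControl cells, namely COL1A1, CCN2 and CCN1, and none was 1.5-fold lower. Over all 12509 genes compared, 25% were past 1.5-fold, 14.1% higher (1768 genes) and 10.9% lower (1362 genes). That split depends on scaling: by total counts it was 2836 higher and 782 lower, and by upper quartiles 2133 and 1075. Under all 4 scalings tried the same count of 3 of the 9 genes was past the fold. COL1A1 had 120 summed footprints in sgDAMP and 30 in sgControl cells, a TMM-scaled ratio of 3.88 (95% counting interval 2.58 to 6). CCN2 had 138 and 72, a ratio of 1.86 (1.39 to 2.51), whose interval reaches below 1.5. CCN1 had 4427 and 2706, a ratio of 1.59 (1.51 to 1.67).

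The other members lay closer to 1. FN1 had 714 summed footprints in sgDAMP and 541 in sgControl cells, a ratio of 1.28 (1.14 to 1.43), and TGFB1 had 425 and 341, a ratio of 1.21 (1.05 to 1.4). TGFB2 had a ratio of 1.1 (1.05 to 1.16) and THBS1 one of 1.06 (1 to 1.12). TGFBI, with 60593 and 60636 footprints, had a ratio of 0.97 (0.959 to 0.981), and VIM, with 26375 and 27487, one of 0.931 (0.916 to 0.947), but both turned to the higher side under total-count scaling, at 0.17 and 0.12 on the log2 scale. In CPM, which is relative to total counts, all 9 genes were therefore higher in sgDAMP footprints, and total-count scaling moved the median of all genes by 0.219 on the log2 scale. The median log2 ratio of the 9 was 0.27, beside 0 over all genes compared. The sgDAMP and sgControl footprints rest on 1 sample each, so that a difference between cultures was not tested.

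**Figure D3:**
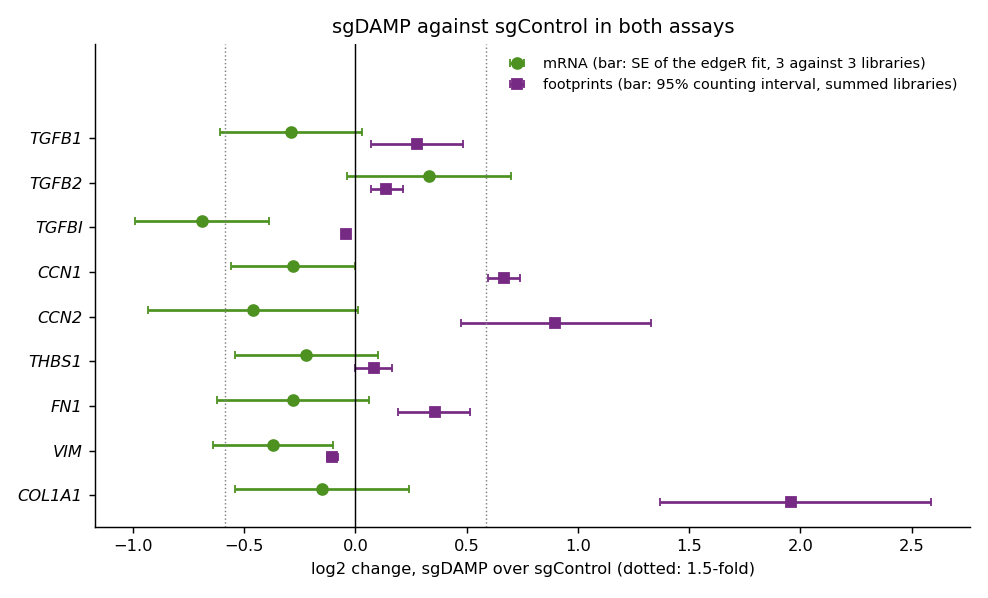
Log2 change of sgDAMP over sgControl cells for each gene in mRNA (circles, bar ± SE of the edgeR fit) and in footprints (squares, bar the 95% counting interval of summed libraries), with dotted lines at 1.5-fold. COL1A1, CCN2 and CCN1 were past the line in footprints, at 1.96, 0.90 and 0.67, and 8 of the 9 mRNA values lay below 0, of which COL1A1 turns to 0.03 under total-count scaling, as TGFBI and VIM footprints turn to 0.17 and 0.12.

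Footprints relative to mRNA set the 9 genes far apart within a condition. The ratio was taken from summed counts as log2 of CPM over CPM and ranked among protein-coding genes with at least 30 mRNA counts, 12145 in sgDAMP, 11973 in sgControl and 12365 in Scramble cells. In sgDAMP cells TGFB2 stood at 4.01 (percentile 96.2), THBS1 at 3.96 (96), VIM at 3.03 (90.7), CCN1 at 2.32 (85.9), TGFBI at 1.98 (83.2) and CCN2 at 1.06 (74.5), beside a median gene of -0.82. COL1A1 at -0.22 (58.4), FN1 at -3.59 (17.7) and TGFB1 at -4.13 (13.3) followed. The order in sgControl cells was the same at both ends, with TGFB2 at 4.14 (95.1), THBS1 at 3.6 (92.6) and VIM at 2.69 (87.5), and FN1 at -4.27 (16.2) and TGFB1 at -4.76 (12.7). Between them lay CCN1 at 1.31 (77), TGFBI at 1.28 (76.7), CCN2 at -0.36 (58.2) and COL1A1 at -2.35 (34.2), where the median gene stood at -0.99. Thus the ligand TGFB1 had few footprints for its mRNA and the ligand TGFB2 many, in both knockout and control cells.

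Scramble cells gave another order. VIM stood at -5.17 (percentile 10.3) there, while TGFB1 at -2.11 (77.3) and FN1 at -2.43 (70.4) lay in the upper part of a distribution whose median was -3.19. THBS1 at -0.28 (96.6), TGFBI at -1.52 (86.7) and TGFB2 at -1.77 (83) were high in Scramble cells as in the others, CCN2 at -0.60 (95.1) was high beside a percentile of 74.5 in sgDAMP and 58.2 in sgControl cells, and CCN1 at -2.1 (77.6) and COL1A1 at -2.29 (73.5) lay near TGFB1. Relative to the median gene of its condition, VIM was the single one of the 9 that lay above it in both CRISPR conditions and below it in Scramble cells, at 3.85 in sgDAMP, 3.68 in sgControl and -1.98 in Scramble cells. TGFB1 (-3.31, -3.76 and 1.08) and FN1 (-2.77, -3.27 and 0.76) lay the other way round. Over 11413 coding genes, Spearman's rho between footprints and mRNA of a condition was 0.49 in sgDAMP, 0.43 in sgControl and 0.73 in Scramble cells. It was 0.59 between sgDAMP footprints and Scramble mRNA and 0.56 between sgControl footprints and Scramble mRNA, higher than against the mRNA of their own condition. These are correlations across genes, which are not independent replicates, and they carry no p-value. Depth and share of coding reads move with condition in this comparison, and so does the assignment of mRNA reads to genes. Reads in no annotated feature made up 42.51% to 43.2% in Scramble mRNA, against 1.1% to 1.43% in sgDAMP and sgControl mRNA. Reads ambiguous between genes made up 3.13% to 3.21% in Scramble mRNA, against 13.68% to 14.7% in the other mRNA libraries. The part of each was not tested.

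**Figure D4:**
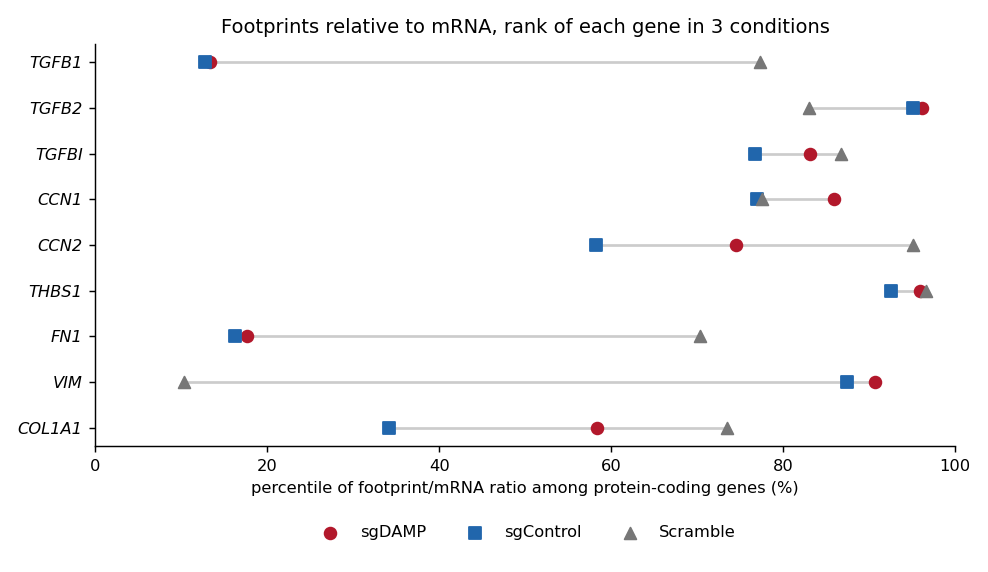
Percentile of the footprint-to-mRNA ratio of each gene among protein-coding genes (x axis, 0 to 100%) in sgDAMP (circles), sgControl (squares) and Scramble cells (triangles). TGFB1 and FN1 lay at 12.7 to 17.7 in sgDAMP and sgControl cells and at 77.3 and 70.4 in Scramble cells, and VIM at 90.7, 87.5 and 10.3.

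Whether footprints changed beyond mRNA between sgDAMP and sgControl cells was tested by an interaction term over both assays. None of the 9 genes passed edgeR's quasi-likelihood test, with an adjusted p of 0.795 for COL1A1 and 1 for the other 8. Of 16766 genes 0.298% passed, 6 higher (0.0358%) and 44 lower (0.262%) in sgDAMP cells. This split depended on the fit, with 165 higher and 117 lower by limma-voom, 262 and 189 with footprint libraries as replicates, and 118 and 97 with these and the replicate block. COL1A1 had the largest estimate of the 9, with a log2 difference of 2.12 (SE 0.83, unadjusted p 0.022), and the adjusted p fell to 0.0491 when the footprint libraries were entered as separate replicates, the smallest over 20 alternatives. CCN2 followed at 1.37 (SE 0.92) and CCN1 at 0.96 (SE 0.60), then TGFBI at 0.66 (SE 0.63), FN1 at 0.65 (SE 0.71), TGFB1 at 0.57 (SE 0.67), THBS1 at 0.32 (SE 0.61), VIM at 0.27 (SE 0.58) and TGFB2 at -0.18 (SE 0.69). The estimate was above 0 for 8 of the 9, with a median of 0.65 beside 0 over all genes tested. It subtracts the mRNA change, itself below 0 for 8 of the 9, and so is not a separate rise of footprints. TGFBI and VIM were above 0 here with footprint log2 ratios of -0.04 and -0.1. The SEs, of 0.58 to 0.92 on the log2 scale, rest on the spread of the mRNA libraries, since each summed footprint sample was assumed to vary like them.

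In Scramble cells, where footprint libraries differ beyond sampling noise, the 2 assays were compared directly. Of the 9 genes 5 were higher in footprints than in mRNA and 1 was lower by edgeR's test after TMM scaling over all 6 libraries, beside 44.5% of 14432 tested genes (17.1% higher and 27.4% lower). By total-count scaling, which moves the median of all genes by -2.84, all 9 lay below 0 and none was called higher, so the order of the genes is the firmer part. The median gene stood at -0.68 on the log2 scale. THBS1 had the highest value, 2.57 (SE 0.36, edgeR adjusted p 1.58e-06), above 94.6% of tested genes, and CCN2 followed at 2.23 (SE 0.56, adjusted p 0.00202, 93.3%). TGFBI stood at 1.29 (SE 0.25, adjusted p 0.000166), TGFB2 at 1.08 (SE 0.32, adjusted p 0.00862) and TGFB1 at 0.72 (SE 0.20, adjusted p 0.00597).

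CCN1 at 0.74 (SE 0.36, edgeR adjusted p 0.0994), FN1 at 0.42 (SE 0.23, adjusted p 0.139) and COL1A1 at 0.36 (SE 0.90, adjusted p 0.755) did not pass. CCN1 was called by DESeq2 (adjusted p 0.0423) and without Scramble mRNA replicate 3 (edgeR adjusted p 0.0475), and FN1 by DESeq2 (adjusted p 0.0135) and without Scramble footprint replicate 3 (edgeR adjusted p 0.0469). VIM was the single member lower in footprints, at -2.3 (SE 0.26, adjusted p 5.45e-08), above 26.4% of tested genes, and it stayed lower under all 15 alternatives. The calls of the ligands were lost without Scramble footprint replicate 1, where TGFB1 stood at 0.47 (edgeR adjusted p 0.16) and TGFB2 at 0.64 (edgeR adjusted p 0.281). TGFB1 was also not called without footprint replicate 2 (edgeR adjusted p 0.0583) or by limma-voom (adjusted p 0.0793). The share of counts in coding genes was 20.16%, 19.51% and 6.37% in the Scramble footprint libraries of replicates 1, 2 and 3, and replicate 3 was the lowest of the 3 for every member but CCN2. Where 10 counts in every library were required, 4 members were left, TGFB1 at -0.27 and FN1 at -0.57 turned negative, FN1 with a call on the lower side (edgeR adjusted p 0.00575), and TGFBI at 0.30 was not called.

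The pathway around these genes was followed in 131 further genes in 9 lists of ligands, receptors, SMADs, inhibitors, targets, matrix and adhesion. In mRNA none of the 113 tested passed, and the median log2 change was -0.23 beside 0.03 over all genes. Lists of matrix receptors (13 tested, median -0.51), matrix proteins (25 tested, -0.43) and TGF-beta targets (14 tested, -0.33) lay lowest, and SMADs (5 tested, 0.48) and receptors (9 tested, 0.34) highest. The ligands and their activation stood at -0.15 (13 tested), YAP and TEAD targets at -0.10 (15 tested), transition factors and cadherins at -0.07 (7 tested) and inhibitors at -0.05 (12 tested). LTBP4, which anchors latent TGF-beta in the matrix, had a log2 change of -1.05 (unadjusted p 0.00696), TGM2, a matrix cross-linking enzyme, -1.05 (unadjusted p 0.0146), ITGB5, an integrin subunit, -0.84 (unadjusted p 0.0134) and COL6A1 -0.90 (unadjusted p 0.0193), each with an edgeR adjusted p of 0.862. In the receptor list BMPR1A stood at 0.77 and ACVR1 at 0.50, and among SMADs SMAD4, the common partner, at 0.74 and SMAD1 at 0.57. GREM1, a BMP antagonist, was at 0.90 and PMEPA1, a TGF-beta-induced inhibitor, at -0.69.

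In footprints 15 of 102 list genes were at least 1.5-fold higher in sgDAMP cells and 7 were lower, with a median log2 ratio of 0.09 beside 0 over all genes. Of all genes compared 14.1% were higher and 10.9% lower, so the share of higher genes in the lists was close to that of all genes. Higher ones were FST, which binds activins, with 234 and 98 summed counts in sgDAMP and sgControl cells (ratio 2.32, 95% counting interval 1.82 to 2.96), SDC1, a heparan sulfate proteoglycan, with 778 and 404 (1.87, 1.66 to 2.11), and SDC4 with 177 and 82 (2.09, 1.6 to 2.76). IGFBP3, a TGF-beta target that binds insulin-like growth factors, had 660 and 391 (1.64, 1.44 to 1.86), and TGM2 had 985 and 593 (1.61, 1.45 to 1.79). Matrix genes past the fold were FBN1, COL7A1 and COL12A1, 3 of 21, with ratios of 2.34, 1.67 and 1.55 (the last with an interval of 0.964 to 2.54). LTBP2, ITGB8 and BMP2, of 12 ligand and activation genes, had ratios of 2.98, 2.55 and 1.98 on 14 to 53 counts. SMURF1 (1.77) and PMEPA1 (1.56) were the other inhibitors of 10 past the fold on the higher side, and LATS2 (2.45) and AJUBA (1.71) the YAP and TEAD targets of 14.

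The 7 list genes lower in sgDAMP footprints were TGFBR1, SMAD2, BAMBI, PTPN14, ITGA6, TWIST1 and ACVR2B. ACVR2B, an activin receptor, had 78 and 148 counts, a ratio of 0.511 (0.384 to 0.677). The other 6 were far lower. They were also the list genes, 6 of 114 tested, that passed edgeR's interaction test, all on the lower side. Of all tested genes 0.262% passed on that side. The lists were chosen with earlier results of these data known, so setting these shares side by side is no test of the lists. TGFBR1, the type I TGF-beta receptor kinase, had 685, 745 and 693 footprint counts in sgDAMP libraries, against 11431, 12509 and 11293 in sgControl libraries. The ratio was 0.0585 and the interaction -4.29 on the log2 scale (SE 0.69, edgeR adjusted p 0.0134). SMAD2, a transcription factor that this receptor phosphorylates, had 85, 90 and 91 counts in sgDAMP against 2089, 2154 and 2041 in sgControl libraries (interaction -4.37, SE 0.61, edgeR adjusted p 0.00711).

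BAMBI, a pseudoreceptor that blocks the pathway, had 288, 332 and 313 footprint counts in sgDAMP and 3654, 4555 and 5154 in sgControl libraries, with an interaction of -3.79 (SE 0.58, edgeR adjusted p 0.00897). PTPN14, a phosphatase that restrains YAP, had 48, 61 and 68 in sgDAMP and 2505, 2460 and 1874 in sgControl libraries (-5.21, SE 0.76, edgeR adjusted p 0.00711). ITGA6, a laminin receptor subunit, had 1360, 1438 and 1491 in sgDAMP and 18967, 19155 and 17423 in sgControl libraries (-4.03, SE 0.66, edgeR adjusted p 0.0142). TWIST1, a transcription factor of the mesenchymal transition, had 13, 18 and 24 in sgDAMP and 4328, 3457 and 3879 in sgControl libraries (-7.34, SE 0.75, edgeR adjusted p 3e-04). Their mRNA did not pass the test, with log2 changes of 0.20 for TGFBR1, -0.23 for SMAD2, -0.08 for BAMBI, -0.10 for PTPN14, 0.30 for ITGA6 and -0.42 for TWIST1. Genes on both sides of the pathway are thus among the 6: a receptor and a SMAD that carry the signal, and BAMBI, which blocks it.

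Several measurements stand beside these 6 genes. Among 98 list genes with at least 30 sgControl footprint counts, these 6 alone varied beyond sampling noise between the sgControl footprint libraries, with a chi-square per degree of freedom of 12.6 for SMAD2 to 211 for ITGA6. Of 103 such genes in sgDAMP footprints, none did. Of all genes, 57 varied so in sgControl footprints, and 34 genes were both among these 57 (59.6%) and among the 44 called lower (77.3%), so the counting intervals of the 6 are too narrow in sgControl cells. TGFBR1 averaged 106.8 ± 4.68 CPM in sgDAMP and 1572 ± 112 CPM in sgControl footprints (SD, n = 3 libraries counted as 1 sample), while its mRNA averaged 2.79 ± 0.77 and 2.2 ± 0.848 CPM (SD, n = 3). Its footprint-to-mRNA ratio stood at percentile 99.3 in sgDAMP, 100 in sgControl and 42.7 in Scramble cells, that of TWIST1 at 55.7, 99.7 and 89.2, and that of BAMBI at 70.8, 96.4 and 31.3. The sgControl value was the highest of the 3 conditions for all 6 genes, in TGFBR1 and ITGA6 with sgDAMP close behind at 99.3 and 97.7. What these levels rest on was not tested.

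**Figure D5:**
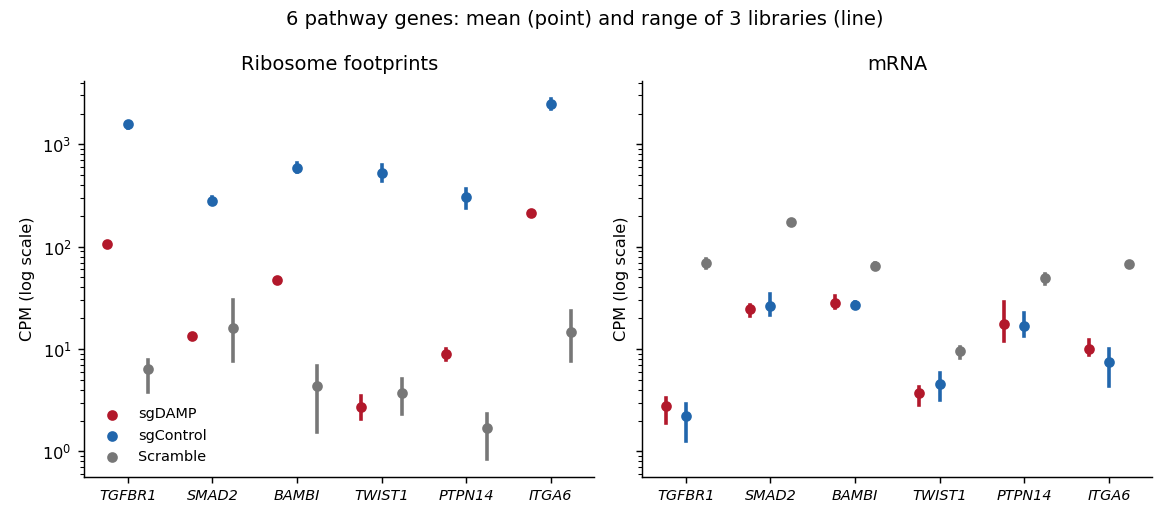
Footprint level (left) and mRNA level (right) of the 6 list genes called lower, in CPM on log axes, with points for the mean and lines for the range of 3 libraries in sgDAMP, sgControl and Scramble cells. Footprints of TWIST1 stood at 2.74 CPM in sgDAMP and 524 CPM in sgControl libraries, while its mRNA stood at 3.7 and 4.54 CPM.

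The remaining lists gave no interaction call. All 25 tested matrix genes had an interaction estimate above 0, with a median of 0.61 beside 0 over all genes, and none passed. The mRNA change of this list, which the estimate subtracts, had a median of -0.43, and its footprint log2 ratio one of 0.13. NID1 stood at 3.38 (SE 1.28, edgeR adjusted p 0.77) and TIMP3, an inhibitor of matrix proteases, at 2.72 (SE 1.51, edgeR adjusted p 1). Both rest on very few footprints, 14 in sgDAMP and 2 in sgControl cells for NID1, and 6 and 2 for TIMP3. Among TGF-beta targets (14 tested, median 0.51) TGM2 stood at 1.75 and TAGLN at 1.28. In the list of ligands and their activation (13 tested, median 0.37) LTBP2 stood at 1.79 and BMP4 at -1.32. The medians of the lists with 1 call each were 0.61 for matrix receptors, 0.26 for YAP and TEAD targets, 0.18 for inhibitors, 0.16 for transition factors and cadherins, -0.51 for receptors and -0.69 for SMADs.

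In Scramble cells 34 of 111 tested list genes were higher and 35 lower in footprints than in mRNA after TMM scaling. Of all genes tested 17.1% were higher and 27.4% lower. The median of the list genes was -0.35. It was -0.21 with the 4 genes at 0 footprints set to a floor of 3 counts over the group. That floor gives an upper limit for each of them, so -0.21 is no corrected median. By total-count scaling none of the list genes was called higher and 97 were called lower. Matrix receptors had 9 of 13 higher and none lower, with CD44, the hyaluronan receptor, at 2.24 (SE 0.26) and ITGA2, CD47 and ITGA5 at 2.18, 2.22 and 1.42. Matrix proteins had 11 of 23 higher and 5 lower, and the 4 with the smallest p were TIMP1 at 3.66 (SE 0.25), PLOD2 at 2.14, EFEMP1 at 2.08 and FBLN1 at 1.84. NID1, named after its values were seen, stood at 3.23 (SE 0.55) on 15 footprint counts. Of 5 SMADs 3 were lower, SMAD3 at -1.55, SMAD5 at -1.55 and SMAD4 at -1.14, of which SMAD4 lost its call in 8 of 14 alternatives (adjusted p up to 0.147). Of 11 inhibitors 6 were lower and none higher, with PMEPA1 at -2.58 and SMURF1 at -4.01. TGF-beta targets split into 5 higher, such as ID1 at 2 and ID3 at 1.89, and 5 lower, such as JUNB at -2.04. The list of ligands and their activation split into 3 higher, such as ITGAV at 1.93 and BMP4 at 2, and 6 lower. Among the lower were GDF15 at -2.63 and FURIN at -1.35. Of 10 receptors 2 were lower, BMPR1A at -1.7, with its call lost in 4 of 14 alternatives (adjusted p up to 0.0797), and ACVR2B, which had 0 footprints and was at least 2.36-fold lower against a floor of 3 counts over the group. YAP and TEAD targets had 2 of 15 higher, NT5E at 1.92 among them, and 6 lower, such as AMOTL2 at -1.69. Of 6 transition factors and cadherins 4 were higher, with CDH1 at 1.17, CDH2 at 1.35 and TWIST1 at 1.48, whose call was lost in 4 of 14 alternatives (adjusted p up to 0.138) and whose sign turned by total counts, and 2 lower, with ZEB1 at -3.16. By total-count scaling TIMP1 stood at 0.83 and was not called (edgeR adjusted p 0.116).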

How the data were processed

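Counts per gene, as HTSeq writes them, were deposited by the authors for 18 libraries, as whole numbers for 61487 genes with 5 closing lines on reads in no gene. Per the submitters' processing notes reads were handled on GRCh38 with HISAT2 2.1.0, Trimmomatic 0.30, HTSeq 0.11.2, SAMtools 1.10 and edgeR, in an order the notes leave out. The strand setting is not given in the sources used here. The closing lines (22.24% to 24.24% of reads in sgDAMP and sgControl mRNA, 54.04% to 54.35% in Scramble mRNA, 65.81% to 69.98% in sgDAMP and sgControl footprints, 95.65% to 95.82% in Scramble footprints) were left out of library sizes and tests.

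Here genes were filtered by filterByExpr (minimum count 10), scaled by TMM and tested two-sided with edgeR 4.0.16 (R 4.3.3), with a call at 0.05 after Benjamini-Hochberg adjustment. SE is the log2 change over the square root of F. Footprint ratios of sgDAMP over sgControl carry exact Clopper-Pearson 95% intervals on summed counts, and a call means 1.5-fold. CPM divides by the sum of a library's gene counts, with 0.5 counts added in log ratios. Alternatives used DESeq2 1.42.0 and limma 3.58.1, other scalings and filters, a replicate block and single libraries left out. The main fits and the footprint ratio were tested on simulated counts, with equal spread set for all libraries. The alternative fits were not. The members, the 131 list genes, the marker lists and the naming rule (all members, and per list and comparison up to 4 called genes by p, or 2 where none is called; likeness for 3 members) were chosen with earlier results of these data known. Same-numbered libraries had correlated deviations of -0.602 to 0.535, so numbers were not taken as pairs.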

Additional observations from a re-analysis of the deposited data

Results flagged for a closer look

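The test of the assay-by-condition term set 6 genes of the wider lists apart, since the difference of sgDAMP from sgControl cells was not the same in footprints as in mRNA. On the log2 scale the footprint change minus the mRNA change was -4.29 for TGFBR1, -4.37 for SMAD2, -3.79 for BAMBI, -5.21 for PTPN14, -4.03 for ITGA6 and -7.34 for TWIST1, all called by edgeR. Each footprint arm of this test is 1 summed sample assumed to vary like the mRNA libraries, and the 6 genes varied beyond counting noise between the sgControl footprint libraries, so these p-values carry no footprint spread of their own. The call of TGFBR1 was lost without sgDAMP mRNA replicate 1 (adjusted p 0.0583), and that of ITGA6 without sgDAMP mRNA replicate 1 or 3 (adjusted p 0.051 and 0.0569), while the other 4 were called in all 21 alternatives. VIM drew attention because its footprint-to-mRNA ratio was above the median coding gene in every CRISPR condition and below it in Scramble cells, at 3.03 in sgDAMP and 2.69 in sgControl against -5.17 in Scramble cells on the log2 scale. That difference between conditions was not tested. VIM overlaps VIM-AS1, which had 12800 mRNA counts in Scramble cells, 21 in sgDAMP and 11 in sgControl cells. Reads in no annotated feature made up 42.51% to 43.2% in Scramble mRNA, against 1.1% to 1.43% in sgDAMP and sgControl mRNA. The mRNA side of the VIM ratio may thus not be counted alike, and the part of this was not tested.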

How the results depend on the processing

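Over the 9 genes, no mRNA call was made under any of 14 alternatives, and 3 were past 1.5-fold in footprints under all scalings, filters and left-out libraries run. In mRNA 0 genes were called, against 14 with no filter, 21 with the DESeq2 Wald test, 0 with the replicate block and 0 to 6 with 1 library left out (6 without sgControl replicate 3). Signs turned for COL1A1 (0.03 by total counts, and -0.52 to 0.10 with 1 library left out, above 0 without sgControl replicate 1 or sgDAMP replicate 2) and TGFB2 (-0.07 to 0.57, below 0 without sgDAMP replicate 1). For footprints relative to mRNA 50 genes were called, against 282 with limma-voom, 451 with footprint libraries as replicates, 215 with these and the replicate block, and 26 to 66 with 1 library left out (26 without sgDAMP mRNA replicate 3). TGFB2 ran from -0.44 to 0.20 with 1 library left out, at 0.01 without sgControl mRNA replicate 1 and 0.20 without sgDAMP mRNA replicate 1. Footprint ratios past the fold numbered 3130, against 12418 with no filter, 1235 at 2-fold and 3363 to 3488 with 1 library left out. By an adjusted p in place of a fold, edgeR with the footprint libraries as replicates called 6957, and 6965 with the replicate block added.

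In Scramble cells 6418 genes were called, against 13531 by total counts (481 higher, 13050 lower), 1143 with 10 counts in every library, 4704 with the replicate block and 4736 to 6525 with 1 library left out. Under the block TGFB1 (0.67, adjusted p 0.0542) and TGFB2 (1.04, adjusted p 0.0756) lost their calls. By total counts the values were TGFB1 -2.07, TGFB2 -1.78, TGFBI -1.47, CCN1 -2.12, CCN2 -0.65, THBS1 -0.28, FN1 -2.4, COL1A1 -2.48, BMP4 -0.85, CD44 -0.53, CD47 -0.66, CDH1 -1.63, CDH2 -1.51, EFEMP1 -0.78, FBLN1 -0.99, ID1 -0.80, ID3 -0.89, ITGA2 -0.65, ITGA5 -1.38, ITGAV -0.90, NT5E -0.93, PLOD2 -0.71 and TWIST1 -1.38. Total-count scaling moved the median of all genes by -2.84 from its value under TMM, and which scaling fits these libraries better was not tested. With 10 counts in every library FN1 was -0.57 and TGFB1 -0.27. The causes of these shifts were not tested. Depth limits CCN2 and COL1A1 most, with 14 and 3 footprints in Scramble cells.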
